A study of Mus musculus with 6 samples.

Results

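The genes of DNA damage signaling and repair were followed in E15.5 mouse back skin of embryos labelled Prmt5 cKO and of control embryos. They were taken by name from the deposited count table: 45 gene names were listed, and each matched 1 of its 55401 gene identifiers. All 45 passed the filter on low counts. There were 3 Prmt5 cKO embryos and 3 controls, called independent in the design text, with 1 library each. Epidermis and dermis were extracted together, so fewer cells of a type and less RNA per cell cannot be told apart. The labels name neither the alleles of each group nor the driver of the deletion. The title of the deposited tables carries CRECT, which is also the name of a Cre transgene active in embryonic surface ectoderm, the source of epidermis and not of dermis or muscle.

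Cells that find broken or altered DNA activate the kinases ATM and ATR, which pass the signal to CHK1 and CHK2 and slow the cell cycle. Breaks across both strands are mended by homologous recombination, which copies the sister chromatid, or by end joining, which ligates the ends directly. Damage to one strand goes to base excision, mismatch or nucleotide excision repair, crosslinks go to the Fanconi anaemia pathway, and translesion polymerases copy past damage that remains. Many of these genes are transcribed most in dividing cells. Prmt5 encodes an arginine methyltransferase that acts on histones and on proteins of the splicing machinery.

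Gene counts summed to between 45371876 and 58309148 per cKO library and between 35667634 and 66122667 per control library. Prmt5 measured 27.1, 30.7 and 26.8 CPM (counts scaled to library size, with TMM factors) in the cKO libraries, against 69.7, 40.1 and 67.9 CPM in the controls. The log2 difference was -1.07 (SE 0.19; edgeR, adjusted p = 0.00292), and an exact two-sided permutation test gave p = 0.1, the smallest that 3 against 3 allows. Cell type markers moved between the groups: all 15 pan-epithelial genes fell, with a summed level of 3854 to 4301 CPM in cKO libraries and 9901 to 10922 CPM in controls. All 12 spinous and cornified genes also fell (239.0 to 310.8 CPM in cKO, 16973 to 23663 CPM in controls), and of these Flg2 was at 0 in every cKO library. All 12 dermal fibroblast genes rose (62415 to 82116 CPM in cKO, 40994 to 51345 CPM in controls), as did all 10 skeletal muscle genes (7327 to 7506 CPM in cKO, 3177 to 4360 CPM in controls). Endothelial (7 of 8), leukocyte (5 of 8) and melanocyte (2 of 5) genes also rose, and 0 of 5 erythroid genes were called (edgeR; 2 had an unadjusted p under 0.05). The part of this shift in the repair gene values below was not tested.

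Most repair genes differed little between Prmt5 cKO and control skin. Of the 45 members 3 rose, 8 fell and 34 did not pass at 0.05 after adjustment (edgeR, quasi-likelihood). Over all 19227 genes tested, 35.9% were called, 16.3% as higher and 19.6% as lower, whereas 24.4% of the members were called. Polk rose by more than 1.5-fold, and no other called member changed by that much in either direction; 16.0% of all genes tested were called with such a change. The median log2 fold change was -0.09 over the members and -0.008 over all genes tested. The 95% interval of the fold change lay within 1.5-fold in both directions for 40 of 45 members, a property of 46.2% of all genes tested, and the exceptions were Polk, Polh, Lig3, Xpa and Ddb2. The median level in controls was 29.5 CPM for the members and 15.2 CPM for all genes tested, and these shares were not compared at equal level.

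Libraries of the groups did not overlap for 17 members, 4 higher and 13 lower in cKO, and for 49.9% of all genes tested, 23.3% higher and 26.6% lower. The summed level of the members was 2558 to 2629 CPM in cKO libraries and 2542 to 2729 CPM in controls, so these sums did overlap. Much of the sum comes from the 6 nucleotide excision repair genes, mostly from Ddb1, the most abundant member, which rose. These 6 summed to 888.2 to 936.4 CPM in cKO libraries and 820.1 to 864.6 CPM in controls. By gene, 30 members had a negative log2 fold change and 15 a positive one, so the sum does not describe most members. The direction of the small differences depends on scaling. With upper-quartile scaling, which shifted the median over all genes by a log2 of 0.10, 6 members were called higher and 2 lower, against 23.5% and 14.1% of all genes. The median of the members lay 0.08 below that of all genes with either scaling. With 1 library left out, 1 to 2 members were called higher and 3 to 6 lower. The calls of Polk, Lig3 and Brca1 held in every alternative tried at the same threshold, and that of Rif1 in all but upper-quartile scaling.

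**Figure D1:**
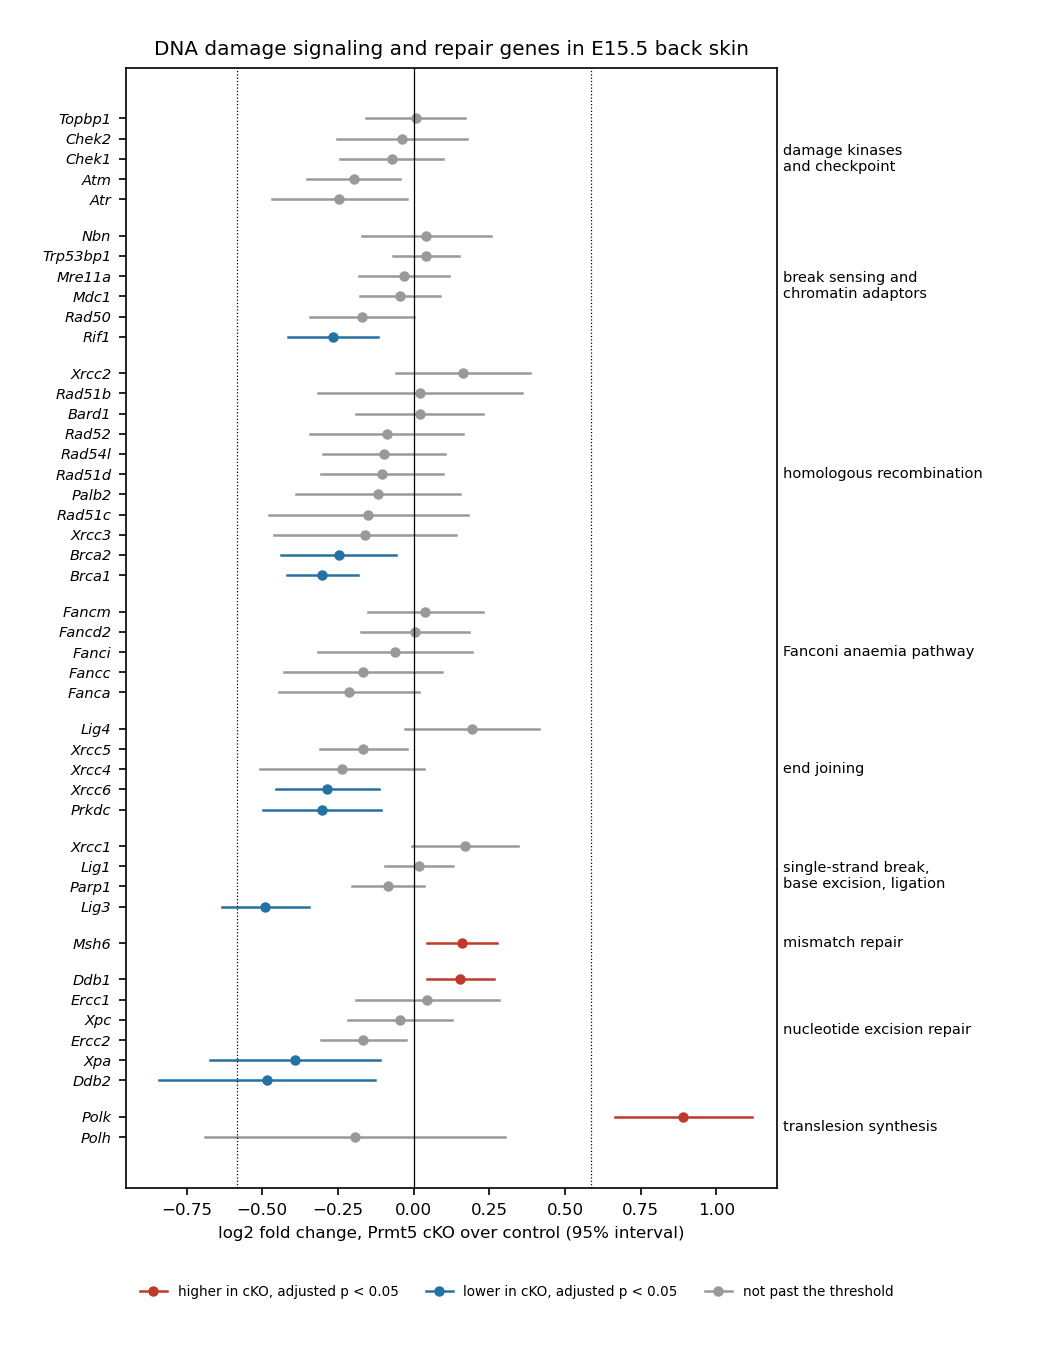
Log2 fold change (Prmt5 cKO over control) of the 45 members, grouped by role, with 95% intervals from 3 libraries per group; red marks genes higher and blue genes lower in cKO at an adjusted p under 0.05, grey the rest, and dotted lines a 1.5-fold change. Polk alone lies beyond the right dotted line, and most intervals stay between both lines.

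The largest change was in translesion synthesis. Polk encodes DNA polymerase kappa, which copies past bulky adducts in the minor groove, and lies on chromosome 13 (96480690 to 96542579, minus strand, GRCm38). Polk measured 25.5, 20.9 and 24.8 CPM in the cKO libraries, against 12.2, 12.7 and 13.4 CPM in the controls. Every cKO library stood above every control, and the lowest cKO value was cKO 2. The level was 1.85 times that of controls (95% interval 1.59 to 2.17), a log2 fold change of 0.89 (SE 0.10; edgeR, adjusted p = 2.17e-04). It ranged from 0.84 to 0.99 over the alternatives. Polh encodes polymerase eta, which copies past ultraviolet lesions, and measured 35.2, 27.8 and 45.5 CPM in cKO libraries, against 51.3, 42.2 and 30.2 CPM in controls. Those groups overlapped widely. Polh had a coefficient of variation of 24.7% among the cKO libraries and 25.6% among the controls, above every other member in both groups, and a log2 fold change of -0.19 (95% interval -0.69 to 0.30).

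RefSeq gives Polk a start at the 5′ end of the gene and another inside it. The 250 bases upstream of each are shown because Polk had the largest change among the members, with a match to the p53 decamer in capitals.
Polk, outer start, chr13:96542580-96542829, minus strand: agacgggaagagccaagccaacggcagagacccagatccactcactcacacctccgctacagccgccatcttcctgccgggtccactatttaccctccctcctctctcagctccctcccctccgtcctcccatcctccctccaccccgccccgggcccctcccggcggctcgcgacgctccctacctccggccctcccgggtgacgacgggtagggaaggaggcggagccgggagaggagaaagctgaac
Polk, inner start, chr13:96519188-96519437, minus strand: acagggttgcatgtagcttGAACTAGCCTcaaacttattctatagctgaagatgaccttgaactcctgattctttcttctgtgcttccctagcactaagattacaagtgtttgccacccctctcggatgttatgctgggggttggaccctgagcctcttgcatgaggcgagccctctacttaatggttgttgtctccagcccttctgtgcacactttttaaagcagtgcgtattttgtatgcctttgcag
The decamer begins 231 bases upstream of the inner start, and the outer window holds none. The decamer occurs, on either strand, in 8.36% of all 32851 RefSeq promoter windows of 300 bases. By gene, it occurs in windows of 8.66% of the 12764 tested genes with one. Among the members it occurs in the windows of Polk and Fanca only, 2 of 36 members matched to a window. The search was for a single decamer and not for a full p53 response element. The counts are per gene and do not tell which start was used.

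In homologous recombination both BRCA genes fell and the other 9 members did not pass. Brca1 encodes the ubiquitin ligase that, with its partner BARD1, favours resection of broken ends (chromosome 11, 101488764 to 101551955, minus strand). Brca1 measured 43.7, 44.4 and 46.9 CPM in cKO libraries, against 55.2, 56.0 and 55.0 CPM in controls. The groups were well apart and the controls nearly equal. That is a log2 fold change of -0.30 (SE 0.05; edgeR, adjusted p = 0.00222). Brca2, whose product is needed for homologous recombination, measured 30.3, 32.1 and 28.6 CPM in cKO libraries, against 32.3, 37.4 and 38.3 CPM in controls. The highest cKO library lay just under the lowest control. Brca2 had a log2 fold change of -0.25 (SE 0.08; edgeR, adjusted p = 0.0479). The settings that ended that call included leaving out control 2, control 3 or any 1 of the cKO libraries, RLE or upper-quartile scaling, no filter, DESeq2, limma-voom and the authors' deposited adjusted p, with values over the alternatives from 0.028 to 0.208.

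The bases upstream of Brca1 are shown because it is the recombination gene with the clearest difference; capitals mark CCAAT, the box bound by the factor NF-Y.
Brca1, chr11:101551956-101552205, minus strand: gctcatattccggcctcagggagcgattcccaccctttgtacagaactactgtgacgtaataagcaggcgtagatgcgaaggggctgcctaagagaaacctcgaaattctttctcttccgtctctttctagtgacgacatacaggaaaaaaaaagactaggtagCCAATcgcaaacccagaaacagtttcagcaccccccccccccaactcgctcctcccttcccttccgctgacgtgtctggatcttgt
CCAAT on either strand is common: it occurs in 37.4% of all promoter windows in windows of 42.4% of the tested genes with one, and in those of 18 of 36 matched members. Bard1, the BRCA1 partner, measured 18.6, 15.7 and 16.2 CPM in cKO libraries, against 15.9, 17.2 and 16.7 CPM in controls, with overlapping groups and a log2 fold change of 0.02 (95% interval -0.19 to 0.23). Palb2, which bridges BRCA1 and BRCA2, had one of -0.12 (95% interval -0.39 to 0.15). The group of Xrcc2, Xrcc3, Rad51b, Rad51c and Rad51d, which act in recombination, ranged from -0.16 for Xrcc3 to 0.16 for Xrcc2, with Rad51c at -0.15, Rad51d at -0.10 and Rad51b at 0.02. Rad54l, a motor protein of strand exchange, was at -0.10, and Rad52 at -0.09. The intervals of all 11 recombination genes stayed within 1.5-fold.

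Of the break sensors and their chromatin adaptors, Rif1 fell and the other 5 did not pass. Rif1 acts with 53BP1 to hold back resection, and also sets the timing of replication. Rif1 measured 70.8, 65.6 and 71.6 CPM in cKO libraries, against 77.0, 89.2 and 83.9 CPM in controls. All cKO values lay below all controls. This came to a log2 fold change of -0.27 (SE 0.06; edgeR, adjusted p = 0.0128), and the adjusted p was 0.0879 with upper-quartile scaling and ran from 0.00434 to 0.0879 over the alternatives. Trp53bp1, the gene of 53BP1 itself, measured 106.7, 100.2 and 102.7 CPM in cKO libraries, against 97.0, 103.2 and 100.7 CPM in controls. These groups overlapped, at a log2 fold change of 0.04 (95% interval -0.07 to 0.15), and Trp53bp1 was called as higher with upper-quartile scaling alone (edgeR, adjusted p = 0.0471; range 0.0471 to 0.863). Mdc1, which binds phosphorylated H2AX at breaks, was at -0.05. In the MRN complex, the first sensor of broken ends, Rad50 was at -0.17, Mre11a at -0.03 and Nbn at 0.04.

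None of the kinases or their activator Topbp1 passed by edgeR's test, where Atm and Atr had unadjusted p of 0.0181 and 0.0344. Atm, which responds to breaks, measured 38.9, 33.7 and 34.7 CPM in cKO libraries, against 40.9, 41.0 and 41.1 CPM in controls. Its groups did not overlap, with a log2 fold change of -0.20 (SE 0.07; edgeR, adjusted p = 0.0502). It was called without cKO 1 (0.0162) and by limma-voom (0.0454), with values over the alternatives from 0.0162 to 0.295. Atr, which responds to stalled forks, measured 40.7, 39.0 and 39.5 CPM in cKO libraries, against 40.4, 53.8 and 47.1 CPM in controls. Control 1 lay within the cKO range, and without it Atr was called as lower (adjusted p of 0.0178 by edgeR), while with all libraries the adjusted p was 0.0834, over a range of 0.0178 to 0.293 in the alternatives. Chek1 and Chek2, the kinases downstream, were at -0.07 (95% interval -0.24 to 0.10) and -0.04 (95% interval -0.25 to 0.18). Topbp1, which activates ATR, averaged 188.0 ± 5.31 CPM in cKO and 187.1 ± 18.1 CPM in controls (SD, n = 3 each).

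In end joining Prkdc and Xrcc6 fell, and the other 3 genes did not pass. Xrcc6 and Xrcc5 encode the Ku pair that caps broken ends, and Prkdc the kinase that Ku recruits. Prkdc measured 32.6, 29.7 and 26.5 CPM in cKO libraries, against 35.1, 38.3 and 36.0 CPM in controls. The groups were apart. Prkdc had a log2 fold change of -0.30 (SE 0.08; edgeR, adjusted p = 0.0239). Its call was lost without cKO 2, cKO 3 or any 1 control and with upper-quartile scaling (range 0.0121 to 0.0893). Xrcc6 measured 42.4, 42.7 and 37.2 CPM in cKO libraries, against 49.6, 52.7 and 46.7 CPM in controls. Every cKO library was lower than every control. Xrcc6 had a log2 fold change of -0.29 (SE 0.07; edgeR, adjusted p = 0.0172), a call lost without control 1, control 2 or cKO 3 and with upper-quartile scaling (range 0.0119 to 0.0756). Exons of Desi1 on the opposite strand overlap 7.69% of its exon length, and Desi1 averaged 38.5 CPM in cKO and 72.2 CPM in controls.

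Xrcc5 measured 30.0, 28.9 and 28.5 CPM in cKO libraries, against 31.6, 34.1 and 32.4 CPM in controls, a log2 fold change of -0.17 (SE 0.06; edgeR, adjusted p = 0.0727). Its groups were apart as well. For the ligation complex, Xrcc4 had a log2 fold change of -0.24 (95% interval -0.51 to 0.03) and Lig4 one of 0.19 (95% interval -0.03 to 0.41), and neither passed. Lig4 was called as higher with upper-quartile scaling (adjusted p of 0.0428 by edgeR, range 0.0428 to 0.332). The summed level of the 5 end joining genes was 108.8 to 120.3 CPM in cKO libraries and 131.2 to 141.0 CPM in controls. Sums were also apart and lower in cKO for homologous recombination (202.8 to 216.9 CPM in cKO, 227.2 to 234.7 CPM in controls). The same held for single-strand break repair and ligation (415.9 to 437.2 CPM in cKO, 443.4 to 466.8 CPM in controls). Nucleotide excision repair and Msh6, the only mismatch repair member, were apart and higher in cKO, and sums of the remaining roles overlapped.

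Among the genes of single-strand break repair and ligation Lig3 fell and the other 3 did not pass. Lig3 encodes DNA ligase 3, the partner of XRCC1 in the nucleus and the ligase of mitochondria (chromosome 11, 82781108 to 82804274, plus strand). Lig3 measured 68.4, 69.3 and 68.2 CPM in cKO libraries, against 91.4, 105.8 and 91.9 CPM in controls. The cKO libraries were nearly equal and all lay below the controls. The level was 0.712 times that of controls (95% interval 0.644 to 0.787), a log2 fold change of -0.49 (SE 0.06; edgeR, adjusted p = 5.01e-04). Annotated exons of Rffl on the opposite strand overlap 25.1% of the exon length of Lig3. Rffl, a ubiquitin ligase gene, averaged 16.9 CPM in cKO and 31.6 CPM in controls, with a log2 fold change of -0.90 ± 0.13 (SE). The library kit keeps strand, but whether the counting used it is not given in the sources used here, so the part of Rffl reads in the Lig3 counts was not tested. In all, 22 of the 45 members share exon sequence with a gene on the opposite strand.

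The 250 bases before the start of Lig3 are shown as those of the member with the largest fall; they hold none of the motifs searched.
Lig3, chr11:82780859-82781108, plus strand: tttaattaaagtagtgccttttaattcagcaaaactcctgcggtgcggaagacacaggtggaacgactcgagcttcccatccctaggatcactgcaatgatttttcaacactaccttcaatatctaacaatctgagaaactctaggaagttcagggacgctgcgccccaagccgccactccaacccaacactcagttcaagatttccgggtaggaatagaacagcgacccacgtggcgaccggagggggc
Xrcc1, the scaffold that holds DNA ligase 3, measured 67.9, 63.8 and 61.5 CPM in cKO libraries, against 61.9, 51.4 and 58.6 CPM in controls. These groups overlapped by 1 control library. Xrcc1 had a log2 fold change of 0.17 ± 0.08 (SE) and was called as higher without control 1 and with upper-quartile scaling, the adjusted p by edgeR being 0.121 with all libraries and 0.0454 and 0.0198 in those fits. Parp1, which marks nicked DNA with poly(ADP-ribose), was at -0.08 (95% interval -0.20 to 0.03). Lig1, the ligase that joins Okazaki fragments, averaged 122.8 ± 2.82 CPM in cKO and 121.3 ± 4.91 CPM in controls (SD, n = 3 each), and its 95% interval of -0.09 to 0.13 was narrower than those of all members but Trp53bp1 and Ddb1.

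In nucleotide excision repair Ddb1 rose, Ddb2 and Xpa fell, and 3 genes did not pass. DDB1 and DDB2 form the complex that finds ultraviolet lesions, and DDB1 also serves as adaptor of the CUL4 ubiquitin ligases. Ddb1, the most abundant member, measured 850.5, 856.5 and 811.2 CPM in cKO libraries, against 746.1, 782.2 and 734.2 CPM in controls. All cKO values lay above all controls. Ddb1 had a log2 fold change of 0.15 (SE 0.05; edgeR, adjusted p = 0.0376). The call was lost without control 1, control 3, cKO 1 or cKO 2 and with no filter (range 0.00323 to 0.1001).

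Ddb2 measured 3.58, 4.85 and 3.84 CPM in cKO libraries, against 6.15, 5.66 and 5.38 CPM in controls. The groups were apart at a low level, between 168 and 375 counts. Ddb2 had a log2 fold change of -0.48 (SE 0.16; edgeR, adjusted p = 0.0409), and the settings that ended its call included leaving out cKO 1, cKO 3 or any 1 control, upper-quartile scaling, no filter, DESeq2 and the authors' deposited adjusted p (range 0.020 to 0.139). Exons of the phosphatase gene Acp2 on the opposite strand overlap 23.8% of those of Ddb2, and Acp2 had a log2 fold change of 0.30 ± 0.07 (SE). DDB2 is known as a p53 target in human cells.

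Xpa, the scaffold of the incision complex, measured 6.82, 6.69 and 5.82 CPM in cKO libraries, against 9.29, 8.26 and 7.83 CPM in controls. Again the groups did not overlap. Xpa had a log2 fold change of -0.39 (SE 0.12; edgeR, adjusted p = 0.0364), a call lost when any 1 library was left out, with upper-quartile scaling, with no filter, by DESeq2 and by the authors' deposited adjusted p (range 0.0353 to 0.139). Exons of Ncbp1, a cap-binding protein gene on the opposite strand, overlap 4.07% of the exon length of Xpa. Ncbp1 averaged 84.4 CPM in cKO and 111.5 CPM in controls, a log2 fold change of -0.40, and its part in the Xpa counts was not tested. Xpc, the first sensor of distorted DNA, was at -0.05 (95% interval -0.22 to 0.13). Ercc1, the partner of the nuclease XPF, was at 0.05, and Ercc2, a helicase of the factor TFIIH, at -0.17 (edgeR, adjusted p = 0.068). Exons of Gm26852 and of the kinesin gene Klc3, both on the opposite strand, overlap 24.6% and 17.8% of the exon length of Ercc2, and Klc3 averaged 11.8 CPM in cKO and 44.7 CPM in controls.

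Msh6, whose product finds mismatched bases, rose. It measured 87.6, 93.5 and 89.7 CPM in cKO libraries, against 82.1, 83.6 and 76.8 CPM in controls. All cKO values lay above all controls, at a log2 fold change of 0.16 (SE 0.05; edgeR, adjusted p = 0.0398). The settings that ended that call included leaving out any 1 library and no filter (range 0.00412 to 0.139). None of the 5 Fanconi anaemia members passed, and by unadjusted p the lowest was Fanca at 0.0651, so that 0 of 5 were under 0.05; DESeq2 and limma-voom called 0 as well. Fanca and Fancc, of the core ubiquitin ligase complex, were at -0.21 (95% interval -0.44 to 0.02) and -0.17 (95% interval -0.43 to 0.10). The clamp formed by the products of Fancd2 and Fanci, which the core modifies, had log2 fold changes of 0.005 and -0.06, and the translocase gene Fancm 0.04.

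**Figure D2:**
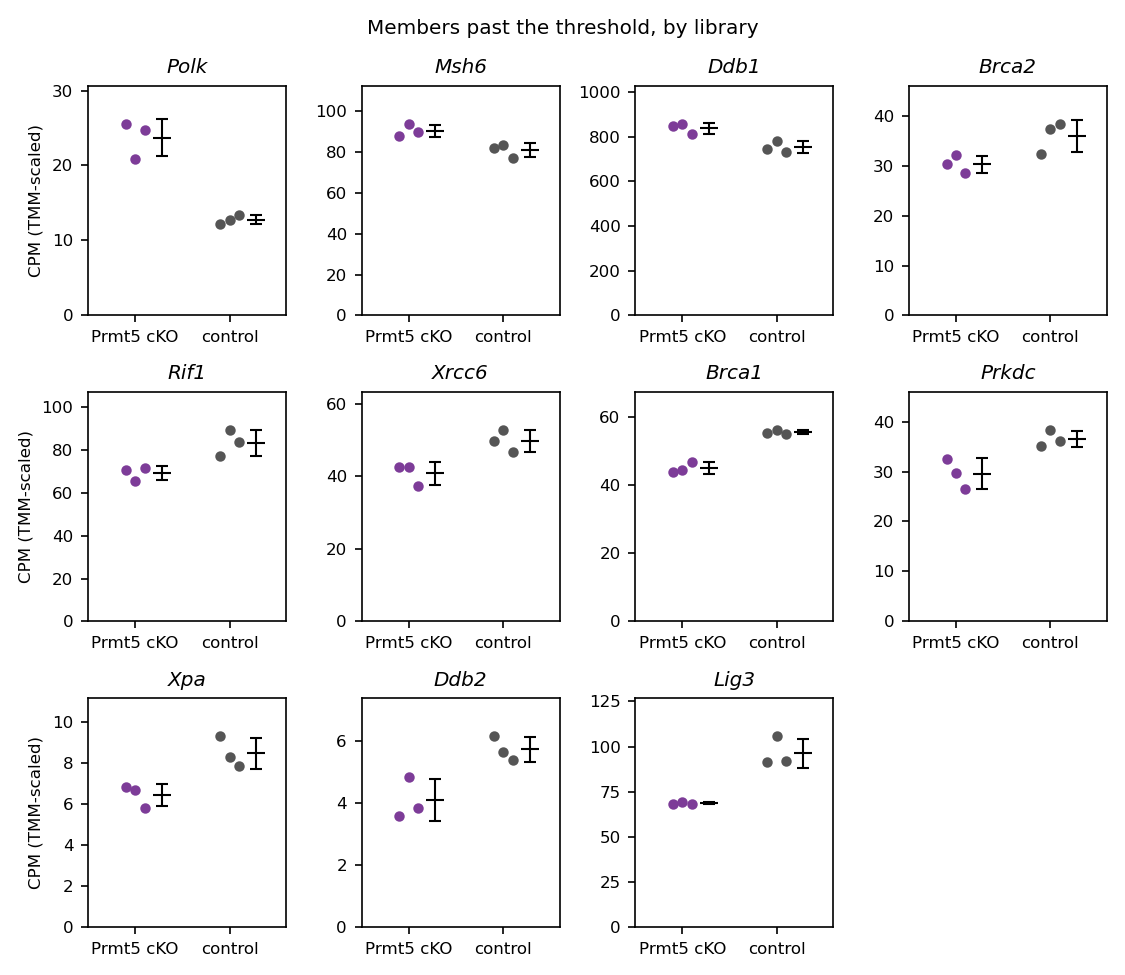
TMM-scaled CPM of the 11 members past the threshold, with each point 1 library (Prmt5 cKO left, control right) and the bar beside them the mean with its SD (n = 3 each); each vertical axis starts at 0. Polk averages 23.7 in cKO and 12.8 in controls, the other panels differ by smaller ratios, and the groups overlap in no panel.

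Sequence upstream of the genes was compared across the members. The letters TTTCCCGC, an E2F-type site of genes used in dividing cells, occurred on either strand in the windows of 7 of 36 matched members (19.4%), against 2.11% of 12764 tested genes with a window and 1.07% of all windows. The other form searched, TTTGGCGC, occurred in none of the members and in 0.971% of those tested genes. The 7 matches are shown with 11 bases on each side and the motif in capitals, because the share of members that hold it is above that of the tested genes; the strand is the one read.
Bard1, chr1:71103163-71103192, minus strand: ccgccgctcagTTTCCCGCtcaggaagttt
Brca2, chr5:150522442-150522471, minus strand: gtgtgtgtctgTTTCCCGCtgtggcctaaa
Chek2, chr5:110839820-110839849, minus strand: cgacgtcttggTTTCCCGCggctaatcccg
Mdc1, chr17:35841471-35841500, plus strand: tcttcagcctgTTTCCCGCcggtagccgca
Msh6, chr17:87975054-87975083, plus strand: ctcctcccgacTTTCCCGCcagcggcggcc
Rad51c, chr11:87404941-87404970, plus strand: gaccccttgctTTTCCCGCcctcgcggggg
Xrcc6, chr15:82016312-82016341, minus strand: gcccactcgcaTTTCCCGCttccaccccct
The Msh6 match lies just downstream of the start. Of these 7 genes Brca2 and Xrcc6 fell, Msh6 rose and the other 4 did not pass. TTTGAA, the letters of the cell cycle element CHR, occurred in windows of 2 of 36 members and 15.01% of the tested genes.

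Levels per length spread widely among the members. Per kb of exon length, Ddb1 measured 131.0 CPM in cKO and 117.7 CPM in controls, followed by Parp1 at 32.5 and 34.4 CPM per kb and Lig1 at 28.8 and 28.4 CPM per kb in cKO and controls. The lowest were Palb2 at 1.07 and 1.16 CPM per kb and Rad51b at 1.35 and 1.34 CPM per kb, again cKO before controls. Polk measured 4.27 CPM per kb in cKO and 2.30 CPM per kb in controls. Neighbours in this order lie close to each other and their order was not tested. The median coefficient of variation of CPM was 5.03% in cKO and 6.63% in controls, against 8.69% and 8.67% for all genes tested. The median level of the members was also higher, at 29.6 CPM in cKO and 29.5 CPM in controls. For all genes tested it was 14.2 and 15.2 CPM, and the variation was not compared at equal level. The members were also longer than the typical gene, with a median span of 34.7 kb against 17.5 kb for all genes tested. The median span was 48.6 kb for the 8 that fell, 24.5 kb for the 3 that rose and 34.2 kb for the 34 that did not pass. These medians rest on few genes, and a link of span to direction was not tested.

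**Figure D3:**
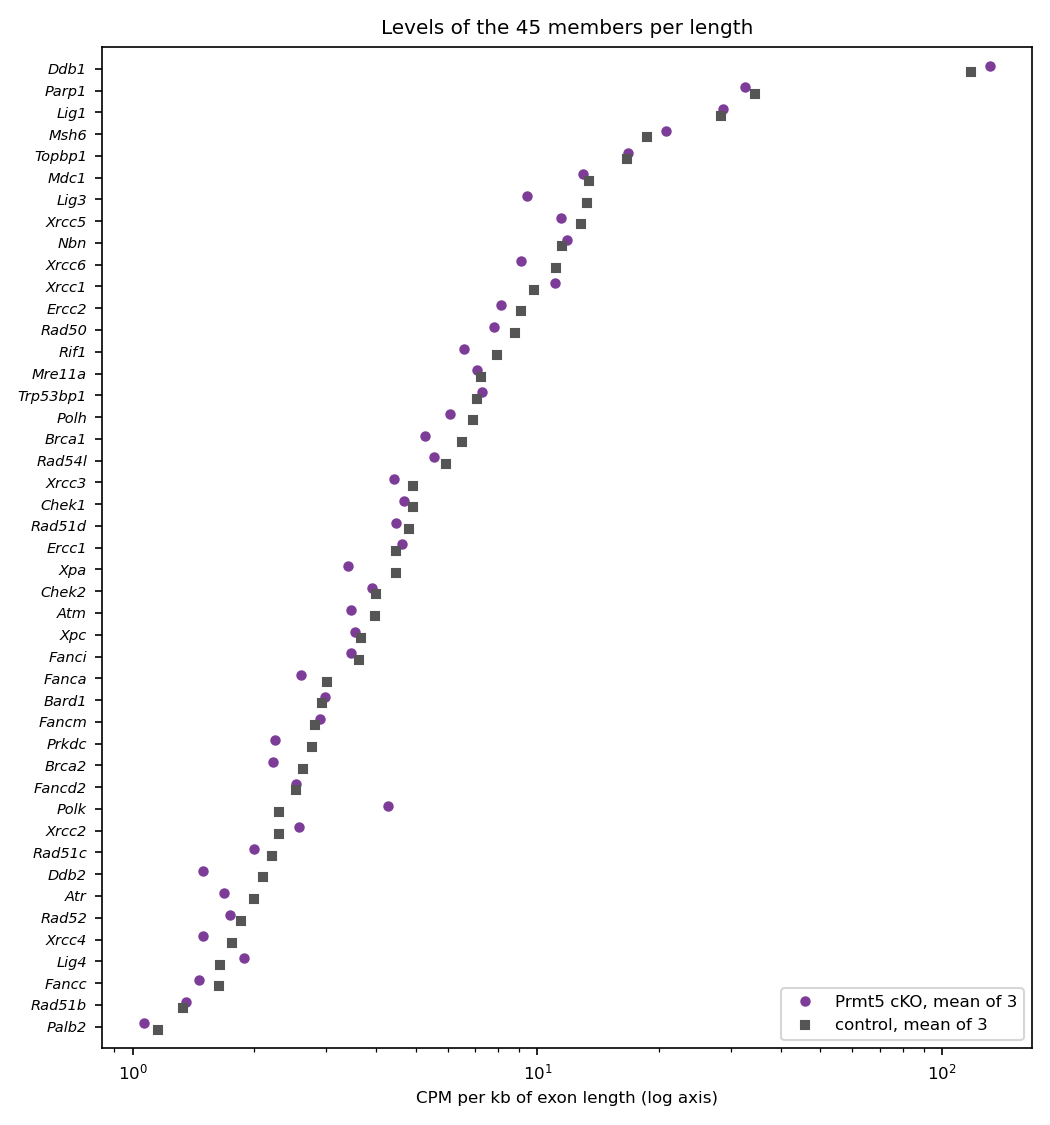
Mean CPM per kb of exon length (log axis) of each member in Prmt5 cKO (circles) and control (squares) libraries, 3 each, ordered by the control level. The paired marks lie close to each other for most members, and Polk shows the widest gap, at 4.27 in cKO and 2.30 in controls.

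Log2 fold changes in the rest of the repair pathways ran from -0.99 to 1.12, against -0.49 to 0.89 over the members, which are fewer. The lowest of these other genes did not pass the threshold. Their median absolute log2 fold change was 0.14, against 0.16 for the members. Of 106 other repair genes 5 rose and 24 fell, 77 missed the threshold, and their median log2 fold change was -0.11. The 16.3% and 19.6% of all genes above apply here too. With upper-quartile scaling 9 rose and 12 fell. In base excision repair 4 of 18 genes fell: Polb, the gap-filling polymerase (24.5 ± 2.12 CPM in cKO, 38.2 ± 1.35 CPM in controls; SD, n = 3 each), Aptx (-0.58 ± 0.07, log2 fold change ± SE), the endonuclease gene Apex1 (-0.56 ± 0.07) and the glycosylase gene Smug1 (-0.53 ± 0.08). These 4 stayed called in every alternative at the same threshold. In the Fanconi list 6 of 12 other genes fell, among them Fancg (11.4 ± 0.939 CPM in cKO, 17.8 ± 0.678 CPM in controls; SD, n = 3 each), Fan1 (-0.41), Fancb (-0.34) and Fance (-0.31), and the deubiquitinase gene Usp1 (-0.23), the most expressed. The call of Fancb was lost without control 1 or 2 or cKO 2 or 3 (adjusted p by edgeR up to 0.108). In mismatch repair Pms1 (-0.30) and Msh3 (-0.27) fell, and they lost their calls in 5 and 4 of the leave-outs (adjusted p by edgeR up to 0.127 and 0.134).

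Of the 5 that rose, 3 were in excision, translesion or direct reversal lists. Mgmt, which removes alkyl groups from guanine, measured 12.1 ± 0.599 CPM in cKO and 5.54 ± 1.15 CPM in controls (SD, n = 3 each), or 1.12 (SE 0.16) as log2 fold change. Rev1, the scaffold polymerase of translesion synthesis, measured 33.3 ± 2.01 CPM in cKO and 20.8 ± 1.43 CPM in controls (SD, n = 3 each), and Rev3l, the most expressed translesion gene, did not pass (0.03). Ercc5, the excision nuclease XPG, measured 52.3 ± 3.65 CPM in cKO and 33.1 ± 1.21 CPM in controls (SD, n = 3 each). In the same list Rad23b (-0.34 ± 0.05), Ercc6 and Ercc4 fell, the last pair losing their calls in 1 and 3 leave-outs (adjusted p by edgeR up to 0.057 and 0.0665). Shprh (-0.47 ± 0.09) and Hltf (-0.24) fell, Hltf losing its call in 5 leave-outs (adjusted p by edgeR up to 0.132). Of 10 other end joining genes 0 were called by edgeR, DESeq2 or limma-voom, and 1 had an unadjusted p under 0.05 by edgeR.

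Of the 23 other recombination genes Brcc3 (-0.44 ± 0.08) and Rbbp8 (-0.22) fell, and Slx4 (0.20) and Sfr1 (0.16) rose. The call of Rbbp8 was lost in all 6 leave-outs and those of Slx4 and Sfr1 in 4 each (adjusted p by edgeR up to 0.146, 0.0714 and 0.115). Of 13 other checkpoint genes Rnf8, a ubiquitin ligase at breaks, fell (-0.43), a call lost in 4 leave-outs (adjusted p by edgeR up to 0.0783), and H2afx, the most expressed, did not pass (-0.10).

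Proliferation lists were near 0: of 25 S phase and DNA replication genes 1 rose and 2 fell (median -0.01), and of 20 mitosis genes 2 rose and 5 fell (median 0.005). The summed S phase level was 2295 to 2443 CPM in cKO libraries and 2343 to 2453 CPM in controls. Targets of p53 moved otherwise, with 14 of 19 higher and 1 lower and a median of 0.51. Eda2r, a receptor gene of that list, measured 26.5 ± 3.26 CPM in cKO and 5.20 ± 0.0667 CPM in controls (SD, n = 3 each), while Cdkn1a, the cell cycle inhibitor p21, did not pass (0.11; edgeR, adjusted p = 0.138), though it was called as higher without control 1 (0.0429) and with upper-quartile scaling (0.0135; range 0.0135 to 0.313).

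**Figure D4:**
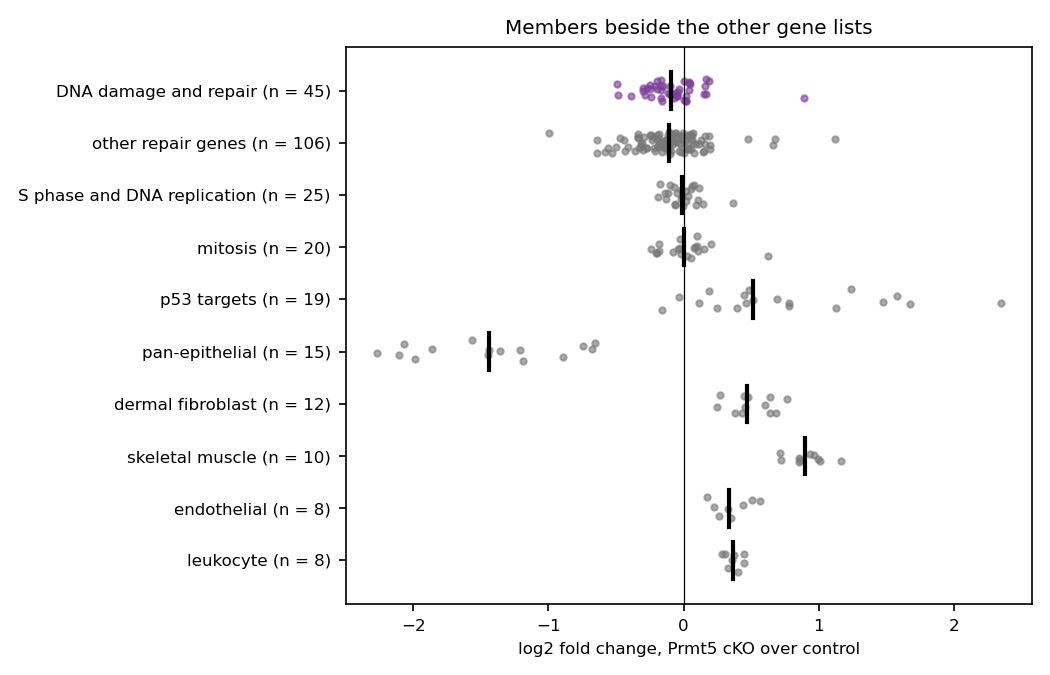
Log2 fold change (Prmt5 cKO over control) of each tested gene in the repair genes, other repair genes, proliferation, p53 target and cell type lists; each point is 1 gene and the black bar the list median. The repair and proliferation lists centre near 0, the pan-epithelial list at -1.44, and the p53 and muscle lists at 0.51 and 0.90.

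The authors' deposited Sleuth table, whose quantification step is not described in the labels, lists all 45 members. At a Sleuth q under 0.05 it calls 2 as higher and 5 as lower, with 35.3% of its 16400 genes called. In that table Polk had an effect of 1.00 on the log2 scale, Lig3 one of -0.49 (q of 4.14e-04), Ddb2 one of -0.57 (q of 0.00149), Prkdc one of -0.32 and Ddb1 one of 0.21. The other two calls of the authors' deposited Sleuth table were Xrcc6 at -0.27 (q of 0.0283) and Xrcc5 at -0.20 (q of 0.0387), and Xrcc5 did not pass in edgeR's test above. Brca1 and Rif1 were at -0.30 (q of 0.0583) and -0.16 (q of 0.303) in the authors' deposited Sleuth table. The authors' deposited DESeq2 table calls 3 members higher and 5 lower, with 29.5% of its genes called, and there Polk is at 0.91 and Lig3 at -0.47.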

How the data were processed

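Messenger RNA of back skin from 6 embryos (3 Prmt5 cKO, 3 control) was sequenced with a stranded TruSeq kit, per the labels' protocols. STAR, StringTie and DESeq2 and the build mm10 are named in the submitters' processing notes, without versions or roles. Which annotation release and counting step were used is not given in the sources used here. Gene counts, whole numbers for 55401 identifiers, are those the authors deposited. Their log2 fold changes and adjusted p-values (DESeq2) and their Sleuth b, treated as natural log values (median ratio to the log2 fold change 0.674), with q-values, were used as the authors deposited them, named per the file headers.

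From the counts, edgeR 4.0.16 (R 4.3.3) kept 19227 genes by filterByExpr, scaled libraries by TMM and compared the groups by the quasi-likelihood test without other terms. P-values were adjusted by Benjamini-Hochberg over all genes tested, with a threshold of 0.05. SE is the size of the log2 fold change over the square root of F, and intervals are 95%. P-values reflect the spread between 3 embryos per group. Exon lengths and coordinates are from GENCODE M21 on GRCm38, matched by identifier without version for all 45 members. Promoter windows (250 bases before to 50 after a start) and sequences are from RefSeq, GRCm38.p6. The members and lists were chosen with earlier results of these data known. All 45 members are named, and of each other list up to 4 (repair) or 2 called genes with the largest change and the most expressed one; genes that share exons with a member were named after their values were seen. The edgeR step was tested on simulated counts. It recovered 7 of 50 genes changed 1.25-fold, 34 of 50 changed 1.5-fold and 46 of 50 changed 2-fold. Of 148 genes called there, 11 were false calls. A gene that did not pass can thus still differ by a small amount. Far more genes, 6906, were called in the real data, so these shares need not hold there. Alternatives used DESeq2 1.42.0, limma 3.58.1 (voom), other scalings and filters, a replicate block and leaving out each library. SciPy 1.17.1 made the permutation test. Some results are not reported here.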

Additional observations from a re-analysis of the deposited data

How the results depend on the processing

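Of the members, 3 higher and 8 lower became 6 and 2 with upper-quartile scaling, 1 and 5 with no filter, 1 and 2 at an adjusted p of 0.01, and 5 lower both with DESeq2 and by the authors' adjusted p; the cause was not tested. Leaving out 1 library gave 1 to 2 higher and 3 to 6 lower. Other repair genes, 5 higher and 24 lower, became 9 and 12 with upper-quartile scaling and 3 and 11 at 0.01, and 3 to 6 and 15 to 19 with 1 library left out. Over all genes 3139 higher became 1825 at 0.01. Of 1575 recomputed log2 fold changes of 105 named genes, 131 lost and 11 gained a call, and none that was called in either fit turned its direction. Sample numbers shared by the groups were not taken as pairs, since the design text calls the embryos independent. Deviations of same-numbered libraries from their group means correlated at -0.079, -0.0432 and -0.0617. With 3 libraries per group these values cannot exclude a pairing. With the sample numbers as a replicate block, 2 members were called higher and 6 lower, and 2723 and 3375 of all genes. The members not called there were Brca2, Ddb2 and Msh6 (edgeR, adjusted p = 0.0733, 0.0656 and 0.0527). Ddb2 rests on 168 to 375 counts per library.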
